A study of Mus musculus with 15 samples.

Results

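The hedgehog pathway genes described here are the 8 genes of the count tables with the symbols Shh, Ihh, Ptch1, Smo, Gli1, Gli2, Gli3 and Hhip, chosen by symbol out of 78298 genes listed. They were followed by RNA-seq in mouse small intestinal organoids, which are cultures in a gel matrix grown from crypts. The crypts came from female offspring, aged 8 to 16 weeks, of wild-type C57BL/6J or LGR5::DTR-EGFP mice bred with C57BL/6J mice. The study followed the abundance and mobility of SOX9, a transcription factor of the crypt, during differentiation. RNA-seq was added after organoids overexpressing SOX9 for a long time had turned from a budding shape into round spheroids, to compare their gene expression. There were 5 conditions with 3 libraries each, 15 in all, and each carried a lentiviral transgene driven by the L30 promoter and selected with puromycin. The study gives a wild-type background for the SOX9-Halo and SOX9-mEGFP lines that became spheroids, and the labels name none for Halo-NLS. In its imaging the study classed Halo-NLS cells by LGR5-DTR-GFP, the marker carried by the LGR5::DTR-EGFP mice. Whether the sequenced Halo-NLS organoids had that genotype is not stated. Differences against Halo-NLS therefore cannot be told apart from a difference in genotype. Halo-NLS organoids carried V5-tagged HaloTag with a nuclear localization signal and served as control. SOX9-Halo and SOX9-mEGFP organoids carried SOX9 fused to HaloTag or to the green fluorescent protein mEGFP, each in a budding and a spheroid form. The study also made double stable lines, SOX9-Halo with H2B-mEGFP selected with zeocin and SOX9-mEGFP with H2B-mScarletI and a neomycin resistance gene. H2B-mEGFP was imaged in SOX9-Halo spheroids. Neither the labels nor the study's text says which sequenced libraries carried a second transgene. Spheroids were taken at later passages than budding organoids of the same line, so morphology, time in culture and any second transgene cannot be told apart. The study ordered the conditions by passage and spheroid shape, with Halo-NLS first and SOX9-Halo spheroids after SOX9-mEGFP spheroids. Between lines, and against Halo-NLS, construct, time in culture and shape therefore cannot be told apart either. Each construct was represented by 1 antibiotic-selected line. Organoids from 6 wells of a 24-well plate were harvested 5 days after seeding. The libraries of a condition were described by the study as biological triplicates, and nothing in the labels says that they came from separate mice.

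Hedgehog proteins are secreted, lipid-modified ligands that bind the receptor Patched. Without ligand, Patched holds the membrane protein Smoothened inactive, and with ligand Smoothened signals through the primary cilium to the GLI transcription factors. In the adult small intestine Indian hedgehog is made by differentiated epithelial cells and is received mainly by mesenchymal cells beneath the epithelium, where Ptch1, Gli1 and Hhip are themselves induced by the signal and are used as its readout.

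Between 28062722 and 40559766 counts per library were assigned to genes. A count of 0 allows a level of up to 3 counts, or 0.0696 to 0.117 CPM (counts scaled by TMM to a common library total), which covers counting error only. Of the 8 hedgehog genes, 3 (Ihh, Ptch1 and Smo) passed the low-count filter and were tested, and 5 (Shh, Gli1, Gli2, Gli3 and Hhip) did not. Sox9 counts, which do not separate the transgene from the endogenous gene, gave a check of the labels. Sox9 stood at 15.3, 22.9 and 9.10 CPM in the Halo-NLS libraries and at 39.8 to 705 CPM in the 12 SOX9 libraries, lowest in SOX9-Halo budding replicate 1. A list of 8 epithelial markers summed to between 5947 and 12279 CPM in every library, with the keratin Krt8 the most abundant. Its genes moved apart in both spheroid conditions. The intestinal transcription factor Cdx2 was at 438 CPM in Halo-NLS, 76.8 in SOX9-mEGFP spheroids and 2.69 in SOX9-Halo spheroids. In the same order the brush-border gene Vil1 was at 1411, 768 and 118 CPM, and the adhesion gene Epcam at 993, 1053 and 461. The keratin Krt18 was at 520, 1981 and 1558 CPM. A list of 16 markers of mesenchyme, the usual receiving tissue, summed to between 1.73 and 9.64 CPM. It was 9.03 to 9.64 CPM in Halo-NLS, 3.46 to 7.67 in SOX9-mEGFP budding, 2.50 to 9.63 in SOX9-Halo budding, 1.73 to 2.30 in SOX9-mEGFP spheroids and 3.16 to 3.30 in SOX9-Halo spheroids. Vim, which is not restricted to mesenchyme, was its most abundant gene in the Halo-NLS libraries. Of the defining markers, Dcn was at 0 counts in 12 of 15 libraries and reached 3 counts at most, and Col1a1, Pdgfra and Myh11 reached no more than 32, 11 and 6 counts. Other genes of the list were higher. Pdgfrb, a receptor of pericytes and fibroblasts, was at 26, 46 and 43 counts in Halo-NLS, 15 to 32 in the budding libraries and 0 to 3 in the spheroid libraries. Des, the muscle filament gene desmin, was at 23, 59 and 57 counts in SOX9-Halo spheroids and at 8 or fewer elsewhere. Halo-NLS replicate 3 stood apart from the other libraries. Of 33 markers of mesenchyme, endothelium, immune cells, and glia and neurons, 21 were highest there, against at most 2 in any other library. Its share of ambiguous reads (13.6%) and its number of genes detected were also the highest.

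Ihh, which encodes Indian hedgehog, had the highest level per kilobase of the hedgehog ligands in the control organoids and was downregulated in both spheroid conditions. In Halo-NLS organoids it stood at 213, 270.3 and 142 CPM in replicates 1 to 3. The SOX9-mEGFP budding libraries gave 217, 148 and 48.7 CPM. The SOX9-Halo budding libraries gave 104, 213 and 72.8 CPM. Both budding conditions thus overlapped the control and spread widely among their own replicates. In SOX9-mEGFP spheroids Ihh was at 39.0, 38.3 and 29.1 CPM. In SOX9-Halo spheroids it was at 20.5, 19.3 and 19.7 CPM. Every spheroid library lay below every budding and control library, and the spheroid replicates lay close together. Among all genes tested, spheroid and budding libraries did not overlap for 52.8% in the SOX9-Halo line and 46% in the SOX9-mEGFP line, and the 2 spheroid conditions did not overlap for 48.6%. The order of the means was Halo-NLS (209 ± 64.0 CPM, SD, n = 3), SOX9-mEGFP budding (138 ± 84.5), SOX9-Halo budding (129.9 ± 73.6), SOX9-mEGFP spheroid (35.5 ± 5.53) and SOX9-Halo spheroid (19.9 ± 0.620).

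Differences were tested by the quasi-likelihood test of edgeR, with p-values adjusted by Benjamini-Hochberg over 17560 genes. A gene was called where the adjusted p was at most 0.01, the log2 fold change was at least 1 in size and the mean normalized count was at least 10. Ihh was called lower in SOX9-Halo spheroids than in Halo-NLS, by 10.5-fold (log2 fold change -3.39, SE 0.49, adjusted p = 4.24e-05). It was called lower in SOX9-mEGFP spheroids than in Halo-NLS, by 5.88-fold (log2 fold change -2.56, SE 0.47, adjusted p = 4.91e-04). Within the SOX9-Halo line, Ihh was called lower in spheroids than in budding organoids, by 6.54-fold (log2 fold change -2.71, SE 0.47, adjusted p = 2.77e-04). Within the SOX9-mEGFP line it was called lower by 3.88-fold (log2 fold change -1.96, SE 0.46, adjusted p = 0.00456). That call was lost in 6 of 22 alternatives. They were the fit of the compared libraries alone (adjusted p = 0.0115) and the fits without SOX9-mEGFP budding replicate 1 (0.0304) or 2 (0.0141) or without SOX9-mEGFP spheroid replicate 1 (0.0144), 2 (0.0166) or 3 (0.0248). The log2 fold change was -1.47 without SOX9-mEGFP budding replicate 1 and between -1.87 and -2.05 in the others. The budding organoids did not pass the thresholds against Halo-NLS (adjusted p = 0.349 for SOX9-mEGFP and 0.270 for SOX9-Halo). The spheroid conditions did not overlap each other, but their difference did not pass either (log2 fold change -0.84, SE 0.45, adjusted p = 0.206).

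Bulk counts cannot tell fewer cells of a type from less RNA per cell. The summed level of 6 enterocyte genes (Alpi, Sis, Fabp1, Fabp2, Apoa1 and Apoa4), products of the absorptive cells of the villus, was also lower in both spheroid conditions. It was 5017 to 9803 CPM in Halo-NLS, 1283 to 6151 CPM in SOX9-mEGFP budding, 3404 to 7142 CPM in SOX9-Halo budding, 205 to 513 CPM in SOX9-mEGFP spheroids and 1.86 to 5.55 CPM in SOX9-Halo spheroids. Within conditions, the replicates of this sum followed the order of Ihh in both SOX9-mEGFP conditions and not in the others. The part of enterocytes in the Ihh difference was not tested. Markers of secretory cells summed to 759 to 1529 CPM in Halo-NLS and 0.564 to 1.05 CPM in SOX9-Halo spheroids, with 37.2 to 76.9 CPM in SOX9-mEGFP spheroids. By edgeR all 4 were called lower in SOX9-Halo spheroids than in Halo-NLS, and 2 in SOX9-mEGFP spheroids. Among them, Atoh1 was at 6.76 CPM in Halo-NLS, 9.13 in SOX9-mEGFP spheroids and 0.0212 in SOX9-Halo spheroids. The 4 crypt stem cell markers summed to 147 to 429 CPM in Halo-NLS, 46.2 to 76.7 CPM in SOX9-mEGFP spheroids and 20.5 to 31.0 CPM in SOX9-Halo spheroids, and did not move together. Smoc2 was at 183, 3.78 and 10.3 CPM and Olfm4 at 51.0, 2.45 and 0.181 CPM in these conditions. Lgr5, the receptor that marks crypt stem cells, was at 11.5 CPM in Halo-NLS, 45.8 CPM in SOX9-mEGFP spheroids and 9.61 CPM in SOX9-Halo spheroids. Markers of endothelium reached at most 1.57 CPM in any library, of immune cells 4.52 CPM, and of glia and neurons 37.7 CPM. Endothelial markers summed to 0.821 to 1.57 CPM in Halo-NLS, 0.106 to 0.179 in SOX9-mEGFP spheroids and 0.0353 to 0.107 in SOX9-Halo spheroids. For immune markers these sums were 1.64 to 3.56, 0.284 to 1.03 and 0.0846 to 0.134 CPM. The glial marker S100b was at 1.20 CPM in Halo-NLS and at 6.63 and 24.5 in SOX9-mEGFP and SOX9-Halo budding. It was at 24.3 and 0.515 CPM in the spheroids of these lines. The part of these cells was not tested.

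Dhh, which encodes Desert hedgehog, a ligand best known from the testis and peripheral nerve sheaths, was at a few counts per library in the control and budding organoids and higher in every spheroid library. Raw counts were 2, 2 and 5 in Halo-NLS, 7, 1 and 10 in SOX9-mEGFP budding, and 5, 5 and 5 in SOX9-Halo budding. They were 93, 46 and 100 in SOX9-mEGFP spheroids and 159, 244 and 291 in SOX9-Halo spheroids. No spheroid library overlapped the others, and the 2 spheroid conditions did not overlap each other. In SOX9-Halo spheroids this was 6.77 ± 1.10 CPM (SD, n = 3), in SOX9-mEGFP spheroids 2.22 ± 0.761 CPM, and in Halo-NLS 0.111 ± 0.0661 CPM. Dhh was called higher than in Halo-NLS in SOX9-Halo spheroids (log2 fold change 5.89, SE 0.53, adjusted p = 3.78e-07) and in SOX9-mEGFP spheroids (4.29, SE 0.52, adjusted p = 1.39e-05). It passed the low-count filter through its spheroid libraries alone, so it had to differ, and these tests are given as a description. Against budding organoids of the same line the log2 fold change was 5.60 (SE 0.50, adjusted p = 4.00e-07) for SOX9-Halo and 3.66 (SE 0.48, adjusted p = 3.85e-05) for SOX9-mEGFP.

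Between the spheroid conditions Dhh was called higher in SOX9-Halo (log2 fold change 1.60, SE 0.39, adjusted p = 0.00657). That call was lost without SOX9-Halo spheroid replicate 2 (0.0228) or 3 (0.0304) and without SOX9-mEGFP spheroid replicate 1 (0.0223), 2 (0.0437) or 3 (0.0109), all by edgeR. The log2 fold change was between 1.35 and 1.81 in these fits. Between the lines, the spheroid-against-budding change differed by 1.95 on the log2 scale (SE 0.70) and did not pass (adjusted p = 0.0870). Exons of Dhh overlap those of Rhebl1 on the same strand and of the predicted gene Gm49442 on the opposite strand over 28.25% of their length, and reads in overlapping exons were not counted for any gene. The neighbouring genes Rhebl1 and Lmbr1l were called lower in SOX9-Halo spheroids than in Halo-NLS, with log2 fold changes of -1.17 and -1.43. Values of Gm49442 are not given here, and the part of overlapping or neighbouring genes in the Dhh counts was not tested.

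Shh, the gene of Sonic hedgehog, the third ligand of the family, was at 0 counts in 6 of 15 libraries and reached 7 counts at most, in SOX9-Halo budding replicate 1. Counts were 0, 3 and 0 in Halo-NLS, 2, 1 and 2 in SOX9-mEGFP budding, 7, 3 and 4 in SOX9-Halo budding, 0, 1 and 0 in SOX9-mEGFP spheroids, and 0, 1 and 0 in SOX9-Halo spheroids. The SOX9-Halo budding libraries lay above all spheroid libraries. In a fit with no low-count filter, Shh did not pass in any comparison. The lowest adjusted p was 0.173 by edgeR, for SOX9-Halo spheroids against budding organoids (log2 fold change -3.23), which was under 0.05 before adjustment.

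Per kilobase of exon, the 3 ligands can be set beside each other within a library. In Halo-NLS organoids the Ihh level was 68.3 CPM per kilobase and the Dhh level 0.0252 CPM per kilobase. In SOX9-Halo spheroids these levels were 6.50 and 1.53 CPM per kilobase. Dhh therefore made up 0.0175 to 0.0908% of the summed ligand level per kilobase in Halo-NLS, at most 0.328% in the budding libraries, 4.18, 2.41 and 6.32% in SOX9-mEGFP spheroids, and 15.9, 19.7 and 21.5% in SOX9-Halo spheroids. The summed level of the 3 ligands was 46.7 to 88.6 CPM per kilobase in Halo-NLS and 7.90 to 8.21 in SOX9-Halo spheroids, so that Ihh remained the larger part in every library. This ratio was formed after the values were seen and is a description.

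**Figure D1:**
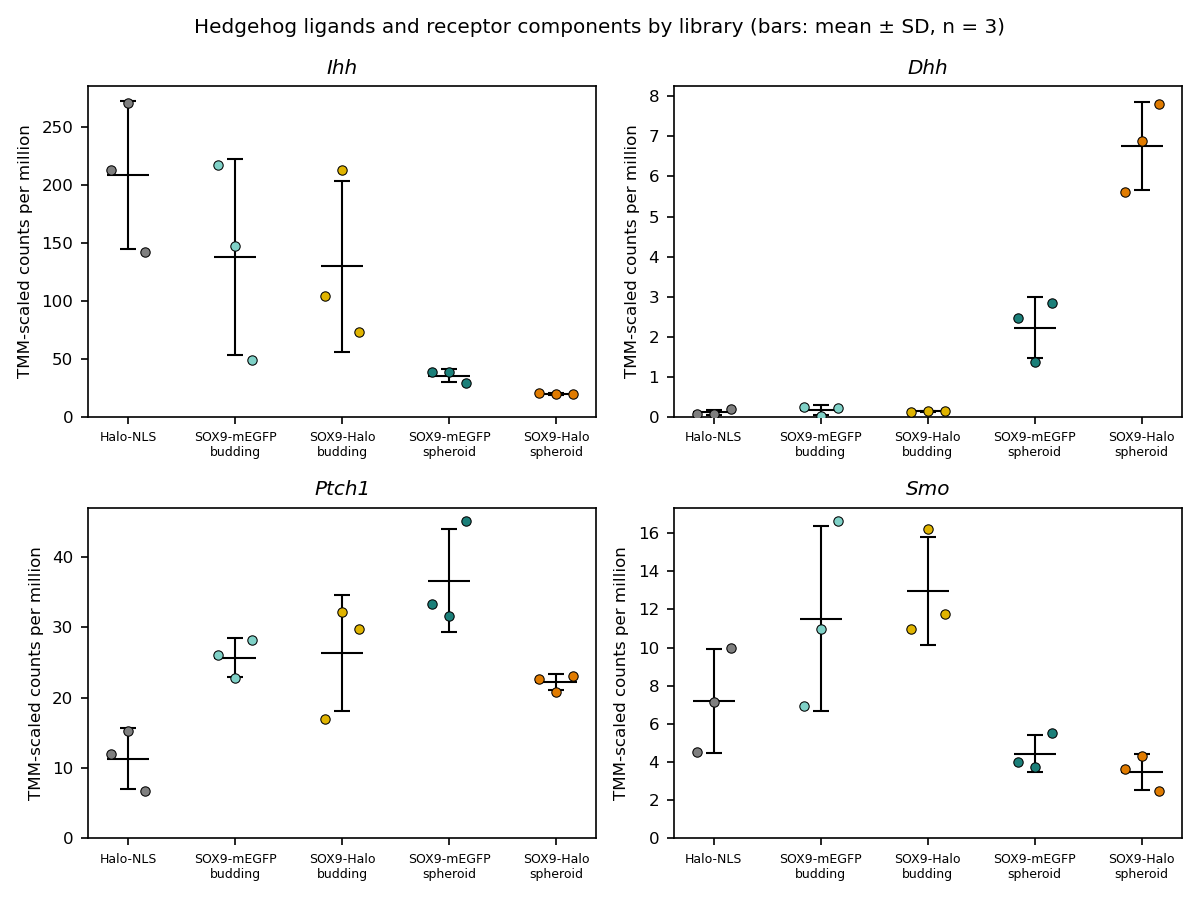
TMM-scaled CPM of Ihh, Dhh, Ptch1 and Smo (vertical axes, linear, from 0) in each of the 15 libraries (points), by condition, with mean and SD of 3 libraries (bars). Ihh fell to 19.9 CPM and Dhh rose to 6.77 CPM on average in SOX9-Halo spheroids, while Ptch1 lay above every control library in all SOX9 libraries.

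The 250 bases upstream of the canonical transcript starts are shown for the 2 ligands that moved in opposite directions, read from GRCm39, the build of the alignments, on the strand of the gene. Ihh lies on the minus strand of chromosome 1 (74984474 to 74990837) and Dhh on the minus strand of chromosome 15 (98789033 to 98796439). The Ihh window holds 72.0% G and C and 24 CpG dinucleotides, the Dhh window 58.0% and 8. Neither holds the GLI site GACCACCCA on either strand, nor the SOX heptamer NNCAANG with each N being A or T, also searched on both strands. The heptamer occurs in 21.2% and the GLI site in 0.188% of 21757 protein-coding promoter windows of this length. Absence says only that these letters are not in these windows.
Ihh, chr1:74990838-74991087, minus strand: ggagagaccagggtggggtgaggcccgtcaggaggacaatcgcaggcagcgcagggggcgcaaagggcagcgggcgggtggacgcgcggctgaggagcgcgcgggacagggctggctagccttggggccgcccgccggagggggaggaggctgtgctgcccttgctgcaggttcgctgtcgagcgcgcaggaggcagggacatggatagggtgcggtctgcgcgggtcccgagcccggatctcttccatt
Dhh, chr15:98796440-98796689, minus strand: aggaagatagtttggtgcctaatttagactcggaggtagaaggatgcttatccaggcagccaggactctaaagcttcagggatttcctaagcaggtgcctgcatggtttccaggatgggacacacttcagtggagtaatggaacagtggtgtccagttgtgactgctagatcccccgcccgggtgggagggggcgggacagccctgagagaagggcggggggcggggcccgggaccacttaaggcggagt

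Ptch1, the gene of the main hedgehog receptor, stood higher in every SOX9 library than in every Halo-NLS library. Halo-NLS gave 12.0, 15.3 and 6.67 CPM. SOX9-mEGFP budding gave 26.0, 22.8 and 28.2 CPM, and SOX9-Halo budding gave 17.0, 32.2 and 29.8 CPM. SOX9-mEGFP spheroids, the highest condition, gave 33.3, 31.5 and 45.1 CPM. SOX9-Halo spheroids gave 22.7, 20.9 and 23.1 CPM, within the range of the budding organoids. Groups that did not overlap were common among all genes tested. They made up 29.7% for SOX9-Halo budding against Halo-NLS, 32.5% for SOX9-mEGFP budding, 54.8% for SOX9-Halo spheroids and 56.5% for SOX9-mEGFP spheroids. Ordered by mean, the conditions were SOX9-mEGFP spheroid (36.6 ± 7.38 CPM, SD, n = 3), SOX9-Halo budding (26.3 ± 8.18), SOX9-mEGFP budding (25.7 ± 2.75), SOX9-Halo spheroid (22.2 ± 1.19) and Halo-NLS (11.3 ± 4.36).

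Against Halo-NLS, Ptch1 was called in 1 of 4 conditions, the SOX9-mEGFP spheroids, where it was 3.23-fold higher (log2 fold change 1.69, SE 0.30, adjusted p = 3.65e-04). With the replicate number as a block and only the compared libraries in the fit, that call was lost (adjusted p = 0.0179), with a log2 fold change of 1.70. The other 3 conditions were near the thresholds. SOX9-Halo spheroids gave a log2 fold change of 0.97 (SE 0.30, adjusted p = 0.0137), SOX9-Halo budding 1.22 (SE 0.30, adjusted p = 0.0157) and SOX9-mEGFP budding 1.18 (SE 0.30, adjusted p = 0.0216). DESeq2 called both budding differences (adjusted p = 0.00201 for SOX9-Halo and 0.00349 for SOX9-mEGFP). Scaling by library size alone, which put the median log2 fold change of all genes against Halo-NLS at 0.27 to 0.31, also called all 3. Without Halo-NLS replicate 2, the highest control library, the SOX9-Halo spheroid difference was called too (log2 fold change 1.26, adjusted p = 0.00562). Ptch1 did not pass between spheroid and budding organoids of the SOX9-Halo line (log2 fold change -0.24, SE 0.29, adjusted p = 0.543) or of the SOX9-mEGFP line (0.51, SE 0.29, adjusted p = 0.229).

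Ptch1 lies on the minus strand of chromosome 13 (63656142 to 63721412, GRCm39). It is the only one of the 8 hedgehog genes and Dhh whose 250-base upstream window holds the GLI site, printed here in capitals on the gene's strand as TGGGTGGTC, the reverse complement of GACCACCCA. The canonical start lies inside the annotated gene, downstream of an alternative first exon. The window is shown because Ptch1 is itself an established GLI target, and the match is a description and not evidence of binding.
Ptch1, chr13:63714093-63714342, minus strand: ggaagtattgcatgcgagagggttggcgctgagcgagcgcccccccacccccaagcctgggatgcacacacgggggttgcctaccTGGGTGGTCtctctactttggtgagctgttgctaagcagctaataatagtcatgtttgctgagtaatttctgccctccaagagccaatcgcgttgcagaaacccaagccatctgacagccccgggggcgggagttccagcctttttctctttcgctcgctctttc

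Smo, the gene of Smoothened, which passes the signal on when Patched is bound, was lower in spheroids than in budding organoids of both lines. Halo-NLS gave 4.52, 7.15 and 9.96 CPM. SOX9-mEGFP budding gave 6.95, 11.0 and 16.6 CPM, and SOX9-Halo budding gave 11.0, 16.2 and 11.7 CPM. SOX9-mEGFP spheroids gave 3.99, 3.76 and 5.53 CPM, and SOX9-Halo spheroids gave 3.64, 4.31 and 2.47 CPM. All spheroid libraries lay below all budding libraries of either line, and Halo-NLS lay between, overlapping both SOX9-mEGFP conditions. Such separation of spheroid from budding libraries was seen for 52.8% of all genes tested in the SOX9-Halo line and 46% in the SOX9-mEGFP line. By mean the order was SOX9-Halo budding (13.0 ± 2.82 CPM, SD, n = 3), SOX9-mEGFP budding (11.5 ± 4.87), Halo-NLS (7.21 ± 2.72), SOX9-mEGFP spheroid (4.43 ± 0.964) and SOX9-Halo spheroid (3.47 ± 0.933). Each condition overlapped its neighbours in this order.

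Within the SOX9-Halo line Smo was called lower in spheroids, by 3.74-fold (log2 fold change -1.90, SE 0.37, adjusted p = 6.11e-04), and stayed called in all 22 alternatives. Within the SOX9-mEGFP line it was called lower by 2.60-fold (log2 fold change -1.38, SE 0.36, adjusted p = 0.00877), close to the threshold. That call was lost in 11 of 22 alternatives, by edgeR with library sizes alone (0.0112), with the compared libraries alone (0.0105) and without any 1 of 9 libraries. These were Halo-NLS replicate 2 (0.0109), SOX9-Halo budding replicate 1 (0.0114) or 3 (0.0101), SOX9-Halo spheroid replicate 1 (0.0125), SOX9-mEGFP budding replicate 2 (0.0192) or 3 (0.0421), and SOX9-mEGFP spheroid replicate 1 (0.0334), 2 (0.0397) or 3 (0.0125). Where the call was lost, the log2 fold change was -1.06 without SOX9-mEGFP budding replicate 3 and between -1.30 and -1.60 otherwise. Against Halo-NLS no Smo difference was called. SOX9-Halo spheroids came closest (log2 fold change -1.05, SE 0.36, adjusted p = 0.0251), and were called without Halo-NLS replicate 1, the lowest control library (-1.29, adjusted p = 0.00789). The other log2 fold changes against Halo-NLS were -0.70 (SE 0.36, adjusted p = 0.114) in SOX9-mEGFP spheroids, 0.85 (SE 0.35, adjusted p = 0.0985) in SOX9-Halo budding and 0.68 (SE 0.35, adjusted p = 0.184) in SOX9-mEGFP budding.

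Ptch1 and Smo encode the inhibitor and the transducer of one receptor step, and the ratio of their levels per kilobase differed between morphologies. It was 1.59, 1.29 and 0.401 in Halo-NLS, 2.25, 1.24 and 1.02 in SOX9-mEGFP budding, and 0.929, 1.19 and 1.52 in SOX9-Halo budding. It was 5.00, 5.03 and 4.89 in SOX9-mEGFP spheroids and 3.74, 2.90 and 5.61 in SOX9-Halo spheroids. Each spheroid library had a higher ratio than each budding or control library. The ratio does not depend on the scaling between libraries, but it was formed after the values were seen and was not tested.

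**Figure D2:**
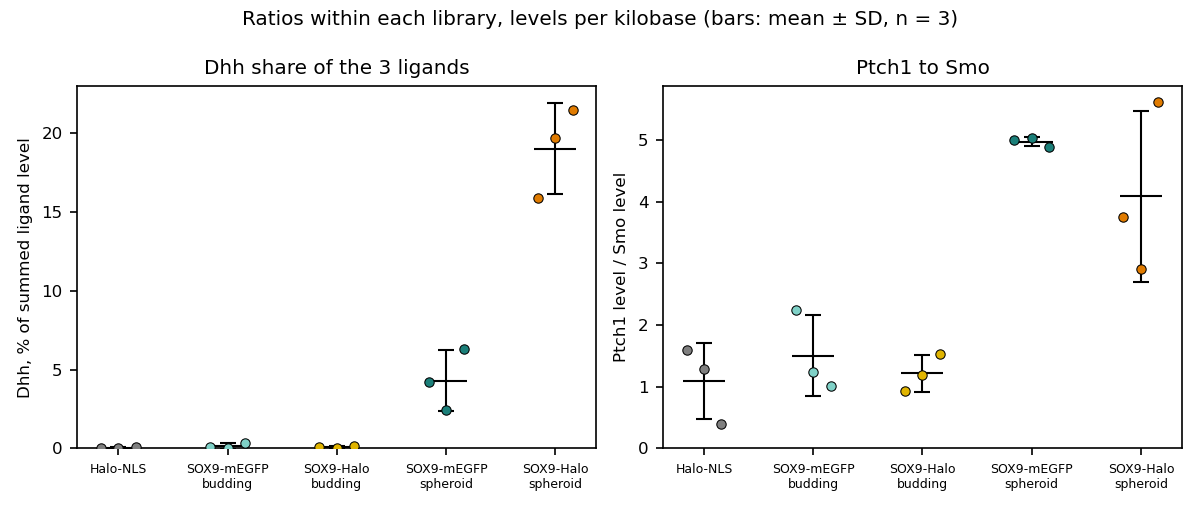
Dhh as a percentage of the summed Shh, Ihh and Dhh level (left) and the ratio of the Ptch1 to the Smo level (right), both per kilobase of exon, in each library (points), with mean and SD of 3 libraries (bars). Both were higher in all 6 spheroid libraries, with Dhh reaching 21.5% and the ratio 5.61.

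Counted together, the 3 tested genes gave 1 call in SOX9-Halo spheroids against Halo-NLS, where 28.8% of all genes tested were called. They gave 2 calls in SOX9-mEGFP spheroids against Halo-NLS, against a background of 27.4%. Spheroids against budding organoids gave 2 calls in the SOX9-Halo line (background 25.2%) and 2 in the SOX9-mEGFP line (background 16.4%). No call was made by edgeR in SOX9-Halo budding (background 3.75%) or SOX9-mEGFP budding (background 2.76%) against Halo-NLS. At an unadjusted p under 0.05 there were 2 and 1 genes in these comparisons, and DESeq2 called 1 in each. Between the spheroid conditions no call was made by edgeR or DESeq2 (background 13.1%), with 1 gene at an unadjusted p under 0.05. Between the budding conditions (background 0.456%) and in the test of whether the spheroid-against-budding change differed between lines (background 7.37%), neither tool called a gene and none was at an unadjusted p under 0.05.

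**Figure D3:**
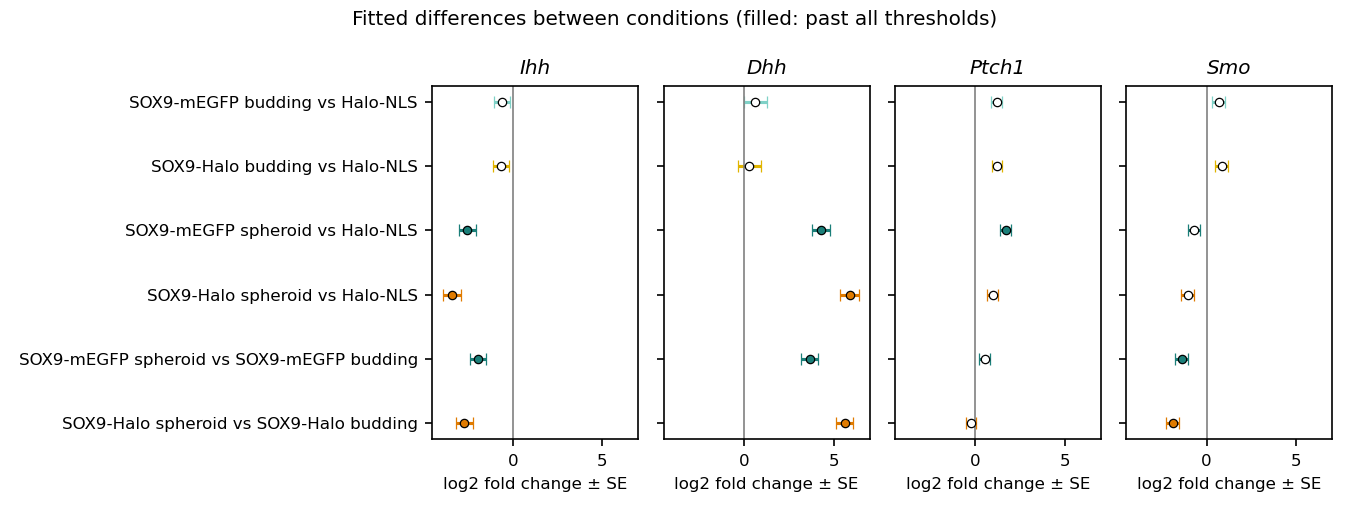
Log2 fold changes of Ihh, Dhh, Ptch1 and Smo (horizontal axes) from edgeR with their SE (bars) for 6 comparisons (rows), filled where all thresholds were passed. Ihh was below 0 and Dhh above 0 in every spheroid comparison, and Ptch1 was past the thresholds in SOX9-mEGFP spheroids against Halo-NLS.

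The genes that act at the end of the pathway were at or near 0 counts in all conditions. Gli1, an activator and a standard readout of hedgehog response, was at 0 counts in 7 libraries. Its counts were 0, 3 and 3 in Halo-NLS, 0, 0 and 0 in SOX9-mEGFP budding, 1, 0 and 1 in SOX9-Halo budding, 0, 0 and 1 in SOX9-mEGFP spheroids, and 1, 5 and 9 in SOX9-Halo spheroids. The SOX9-Halo spheroids held the highest values, but 0.241 CPM was the most it reached and the condition overlapped Halo-NLS. In a fit with no low-count filter, the Gli1 difference between them did not pass (adjusted p = 0.601 by edgeR). The same fit against SOX9-mEGFP spheroids (adjusted p = 0.176) and against SOX9-Halo budding (adjusted p = 0.229) did not pass either, although both differences were under 0.05 before adjustment. The mesenchyme markers Des (23, 59 and 57 counts), Col1a1 (32, 12 and 16) and Tagln (5, 8 and 18) were also highest by mean in SOX9-Halo spheroids. Other markers of that list went the other way, with Vim at 0.584 CPM there and 6.79 in Halo-NLS and Pdgfrb at 0.0386 and 1.40. The whole list summed to 3.16 to 3.30 CPM there and 9.03 to 9.64 in Halo-NLS. The part of mesenchymal cells in the Gli1 counts was not tested.

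Gli2, the main activator in most tissues, was at 0 counts in 11 of 15 libraries, with 5 counts at most. Gli3, which acts largely as a repressor, was at 0 in 7 libraries and reached 19 counts in Halo-NLS replicate 3, the library with the most genes detected (40375, against a median of 28352). It was at 4, 0 and 19 counts in Halo-NLS and at 0, 0 and 0 in SOX9-Halo spheroids. In the fit with no filter that difference had an adjusted p of 3.73e-04 by edgeR, but the mean normalized count of Gli3 (3.19) was below the threshold of 10, and replicate 3 held 19 of the 23 counts in Halo-NLS. Hhip, a membrane protein that binds and sequesters hedgehog ligands, was at 0 counts in 10 libraries, with 6 at most. The highest Gli2, Gli3 and Hhip counts were all in Halo-NLS replicate 3. Of the defining mesenchyme markers, Pdgfra (11 counts) and Myh11 (6 counts) were also highest there, while Col1a1 was at 8 counts there and highest in SOX9-Halo spheroid replicate 1 (32 counts). Of the 16 mesenchyme markers, 11 were highest in that library, among them Col3a1 (10 counts), Col1a2 (8) and Lum (5). Their summed level was 9.03 CPM there and 9.62 and 9.64 CPM in the other Halo-NLS libraries, most of it Vim, and without Vim it was 4.27 CPM there and 1.56 and 2.09 CPM in the others. Some markers of other cells moved with them, with Cdh5 of endothelium at 10 counts there and at most 1 elsewhere, Ptprc of leukocytes at 17 and at most 5, and Cd3e of T cells at 34 and at most 5. Highest there were 4 of 5 endothelial, 3 of 6 immune and 3 of 6 glial and neuronal markers. The most abundant of each list went the other way. Pecam1 was at 8 counts there and 17 and 22 in the other Halo-NLS libraries, Itgam at 22, 38 and 39, and S100b at 12, 47 and 39. The part of these cells in the Gli2, Gli3 and Hhip counts was not tested.

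**Figure D4:**
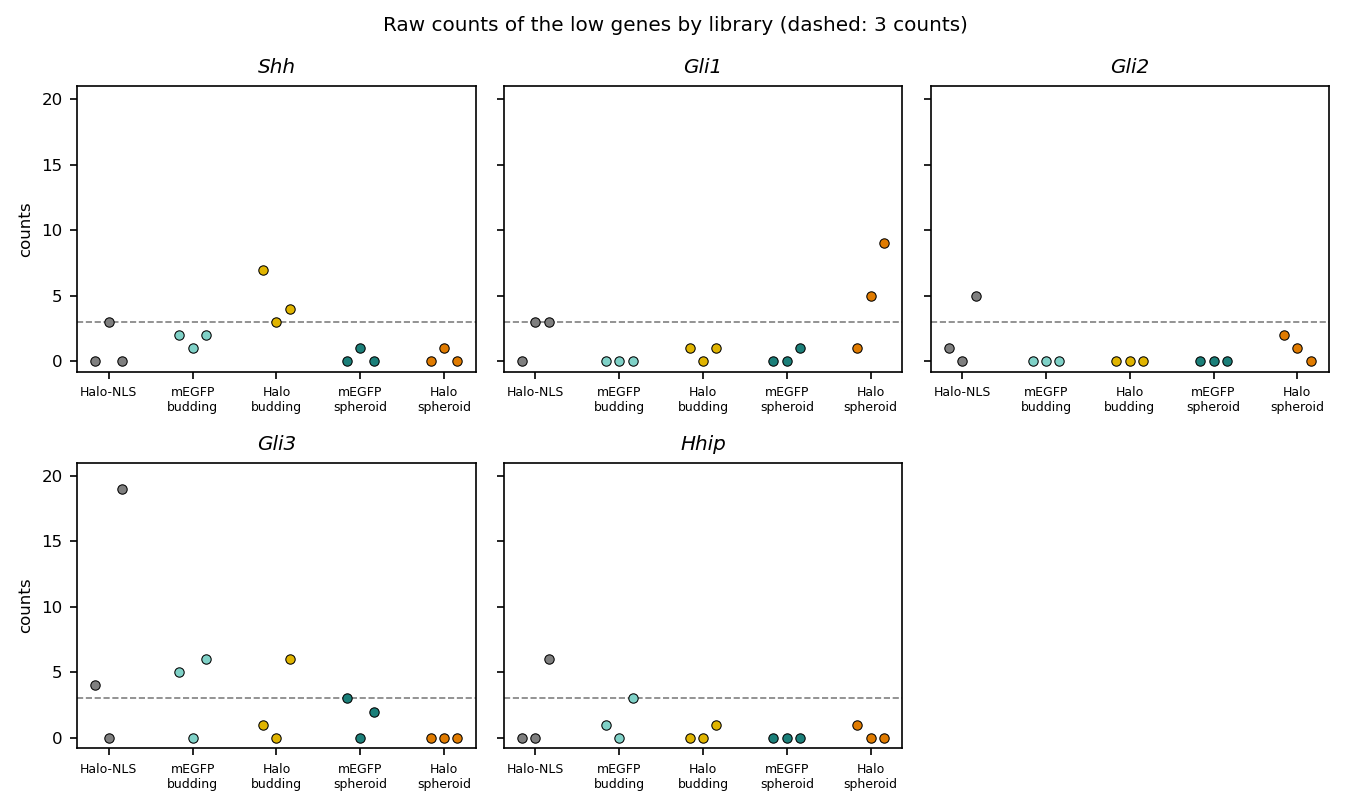
Raw counts (vertical axes, linear, one scale) of Shh, Gli1, Gli2, Gli3 and Hhip in each of the 15 libraries (points), with a dashed line at 3 counts. All values were at 9 counts or fewer except 19 for Gli3 in one Halo-NLS library.

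A list of 33 further genes covered ligand processing, co-receptors and signal transduction, and 25 of them were tested. Against Halo-NLS, 5 were called higher and 2 lower in SOX9-Halo spheroids, where 13.6% of all genes were called higher and 15.2% lower. In SOX9-mEGFP spheroids 7 were called higher and 2 lower (background 15.3% and 12.1%). In both conditions the higher count includes Dhh, which would not have passed the low-count filter without its spheroid libraries, and the lower count includes Disp2, which would not have passed on the spheroid libraries alone. These genes had to differ, as did Scube2, counted as higher in SOX9-mEGFP spheroids. Nothing is read from the counts or medians of this list beside those over all genes. The median log2 fold change of the list was 0.62 and 0.75 in these conditions, beside -0.01 and 0.03 over all genes tested. In budding organoids 1 was called higher by edgeR in SOX9-Halo (background 2.49%) and 1 in SOX9-mEGFP (background 1.99%), in both lines Scube2. DESeq2 called 2 and 3 higher in these conditions, and 6 and 8 were higher at an unadjusted p under 0.05 by edgeR. Called lower was 1 gene in SOX9-Halo (background 1.26%) and 0 by edgeR or DESeq2 in SOX9-mEGFP (background 0.763%), where 4 were lower at an unadjusted p under 0.05. The median was 0.04 in SOX9-Halo and 0.27 in SOX9-mEGFP budding. The higher count in SOX9-Halo spheroids was 3 without SOX9-Halo spheroid replicate 2. In SOX9-mEGFP spheroids, without Halo-NLS replicate 3, 4 were called higher and 1 lower.

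Among the genes that make and release the ligand, Disp2, a relative of the ligand exporter Disp1, was lower in both spheroid conditions. It was at 3.73 ± 2.88 CPM (SD, n = 3) in Halo-NLS, 0.298 ± 0.0668 in SOX9-mEGFP spheroids (log2 fold change -3.63) and 0.116 ± 0.0836 in SOX9-Halo spheroids (-5.03). Hhat, the enzyme that attaches palmitate to hedgehog ligands, went in opposite directions in the lines. It was at 1.60 ± 0.504 CPM in Halo-NLS, 0.378 ± 0.0830 in SOX9-Halo spheroids and 3.36 ± 0.672 in SOX9-mEGFP spheroids. Against budding organoids of the same line it was called lower in SOX9-Halo spheroids (log2 fold change -2.10, SE 0.36, adjusted p = 2.31e-04) and higher in SOX9-mEGFP spheroids (1.56, SE 0.33, adjusted p = 0.00207).

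Scube2, a secreted protein that helps release the ligand, was highest in budding organoids that carried SOX9. It was at 1 to 4 counts in the Halo-NLS libraries, 362 to 451 counts in SOX9-mEGFP budding and 155 to 195 counts in SOX9-Halo budding. It was at 8 to 47 counts in SOX9-mEGFP spheroids and 7 to 22 in SOX9-Halo spheroids. The conditions thus separated into control, spheroids and budding organoids without overlap. Scube2 passed the low-count filter through its SOX9 libraries alone, so it had to differ between conditions, and its tests are given as a description. Against Halo-NLS it was called higher in SOX9-mEGFP budding (adjusted p = 1.29e-05), SOX9-Halo budding (1.40e-04) and SOX9-mEGFP spheroids (0.00292), but not in SOX9-Halo spheroids (0.0223). It was called lower in spheroids than in budding organoids of the SOX9-mEGFP line (log2 fold change -4.23, SE 0.51, adjusted p = 1.72e-05) and of the SOX9-Halo line (-3.67, SE 0.51, adjusted p = 3.45e-05).

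Cdon, a co-receptor that binds the ligand together with Patched, rose in both spheroid conditions. It was at 4.30 ± 1.53 CPM (SD, n = 3) in Halo-NLS, 18.0 ± 2.97 in SOX9-mEGFP spheroids and 19.1 ± 3.50 in SOX9-Halo spheroids, with log2 fold changes against Halo-NLS of 2.06 and 2.15. It was also called higher against budding organoids of the same line (1.58 in SOX9-Halo and 1.15 in SOX9-mEGFP). The other co-receptor genes Boc and Gas1, named here after their values were seen, had at most 11 and 5 counts in any library and were at 0 in all spheroid libraries.

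Downstream of Smoothened, Efcab7, which anchors the EVC complex at the cilium, was called higher in SOX9-Halo (log2 fold change 1.90) and SOX9-mEGFP spheroids (1.48). In SOX9-mEGFP but not SOX9-Halo spheroids, calls against Halo-NLS were made for Kif7, a kinesin that regulates GLI proteins (1.81), and for the kinase genes Csnk1a1 (1.39) and Gsk3b (1.22), whose products phosphorylate GLI among many other proteins, while Grk2, a kinase that acts on Smoothened, was lower (-1.11). Grk2 was also called lower in SOX9-Halo budding organoids (-1.22, adjusted p = 0.00228). Stk36, the relative of the fly hedgehog kinase Fused, was called in SOX9-Halo spheroids (1.45) and not in SOX9-mEGFP spheroids (0.75). Of the genes called in 1 spheroid condition, Kif7 was itself called by edgeR between the spheroid conditions (log2 fold change -1.50 in SOX9-Halo against SOX9-mEGFP, SE 0.32, adjusted p = 0.00291). By edgeR, Stk36 (adjusted p = 0.196), Csnk1a1 (0.102), Gsk3b (0.309) and Grk2 (0.0785) were not. Sufu, the main inhibitor of GLI proteins, named here after its values were seen, was at 64.1 ± 18.5 CPM in SOX9-Halo and 16.9 ± 5.77 CPM in SOX9-mEGFP spheroids, and was called higher in SOX9-Halo (log2 fold change 1.93, SE 0.39, adjusted p = 0.00171).

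**Figure D5:**
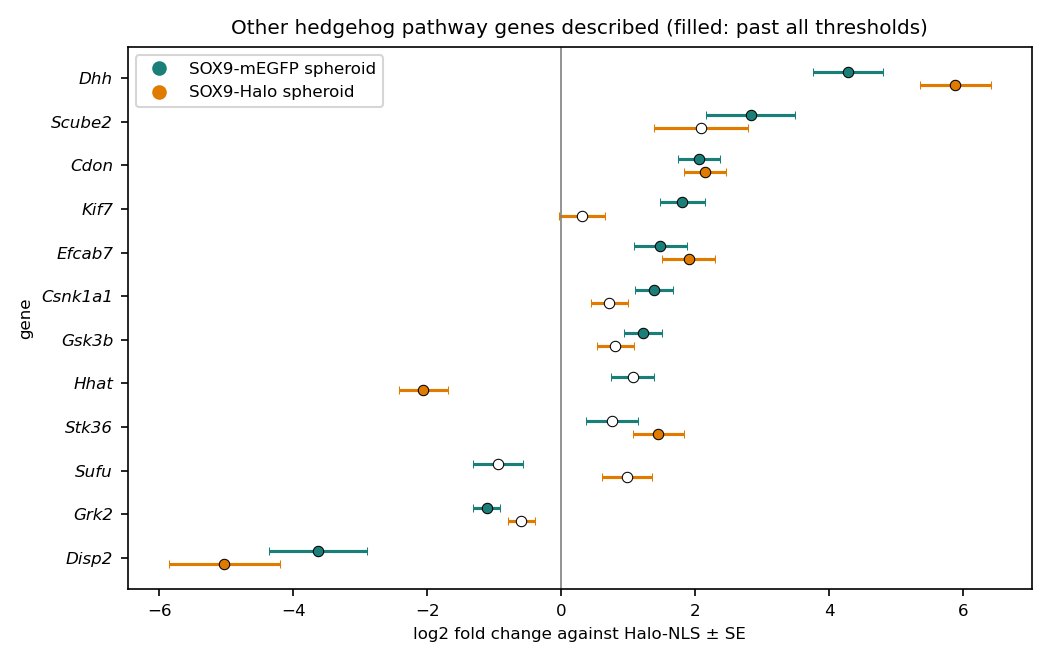
Log2 fold changes against Halo-NLS (horizontal axis) with SE (bars) of the genes of the list of 33 other hedgehog pathway genes that are described here (vertical axis), in SOX9-mEGFP and SOX9-Halo spheroids, filled where all thresholds were passed. Dhh is highest in both, Disp2 is the lowest of the genes past the thresholds in both, and Hhat lies on opposite sides of 0.

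Of 26 genes of the primary cilium, through which the signal passes, all were tested and 13 were called higher in SOX9-Halo spheroids against Halo-NLS, and 11 in SOX9-mEGFP spheroids, where 13.6% and 15.3% of all genes tested were called higher. Both counts include Ift57, of the intraflagellar transport machinery, which would not have passed the low-count filter without its spheroid libraries and so had to differ. Neither edgeR nor DESeq2 called one lower in either, with 1 lower in each at an unadjusted p under 0.05. In the budding organoids neither tool called a cilium gene, with 6 at an unadjusted p under 0.05 in each line, of which 5 were higher in SOX9-Halo and 4 in SOX9-mEGFP. The median log2 fold change against Halo-NLS was 1.31 in SOX9-Halo and 1.13 in SOX9-mEGFP spheroids, beside -0.01 and 0.03 over all genes tested. The count in SOX9-mEGFP spheroids was 6 without Halo-NLS replicate 2 or 3 or SOX9-mEGFP spheroid replicate 2, and 7 without SOX9-mEGFP spheroid replicate 1 or 3. Without Halo-NLS replicate 1, 1 gene was called lower there. Arl13b, a ciliary membrane GTPase, rose in SOX9-mEGFP (log2 fold change 1.87) and SOX9-Halo spheroids (2.27). Ift57 was at 5 counts in each Halo-NLS library, at 2 to 13 counts in the budding libraries, at 132 to 167 in SOX9-mEGFP spheroids and at 247 to 301 in SOX9-Halo spheroids.

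A list of 15 genes reported as induced by hedgehog in responding cells gave mixed values. Of these, 8 were tested. The other 7 include Foxf1, Foxf2, Foxl1 and Osr1, transcription factors of gut mesenchyme, which had at most 4, 1, 1 and 3 counts in any library and are named after their values were seen. In SOX9-Halo spheroids 6 of the 8 were called higher than in Halo-NLS (13.6% of all genes tested), with a median log2 fold change of 2.67 beside -0.01 over all genes. None was lower by edgeR, by DESeq2 or at an unadjusted p under 0.05. In SOX9-mEGFP spheroids 5 were called higher (15.3% of all genes tested) and 1 lower (12.1%), with a median of 2.28 beside 0.03. These counts and medians include Spp1 and Bmp4, which would not have passed the low-count filter without their spheroid libraries and so had to differ. Nothing is read from them beside the values over all genes. In SOX9-Halo budding 1 was called higher (background 2.49%) and 1 lower (1.26%) than in Halo-NLS, with a median of 0.51. DESeq2 called 2 higher and 1 lower there. In SOX9-mEGFP budding edgeR called 0 and DESeq2 called 1 higher (background 1.99%), with a median of 0.44. At an unadjusted p under 0.05, 2 were higher and 1 lower there. Ccnd2 and Ccnd1, cyclins of the G1 phase, were called higher in SOX9-Halo spheroids (log2 fold change 2.78 and 3.03) and SOX9-mEGFP spheroids (3.43 and 2.17). Exons of Ccnd1 overlap a gene on the opposite strand over 48.4% of their length. Bcl2, an inhibitor of apoptosis, was called higher in both (2.56 and 2.40).

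Other genes of that list differed between the spheroid conditions. Spp1, a secreted phosphoprotein, was at 2 to 15 counts in the Halo-NLS libraries, 17748 to 30738 counts in SOX9-mEGFP spheroids and 351 to 1007 counts in SOX9-Halo spheroids. Bmp4, a secreted growth factor, was at 0 counts in all Halo-NLS libraries, 66 to 112 counts in SOX9-mEGFP spheroids and 4 to 12 counts in SOX9-Halo spheroids. Mycn, a transcription factor of the MYC family, was higher in SOX9-Halo spheroids than in Halo-NLS (log2 fold change 2.48) and lower in SOX9-mEGFP spheroids (-3.28), where it was at 6 to 10 counts per library. The call of Mycn as lower was lost without SOX9-mEGFP spheroid replicate 1 or 3.

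The genes whose pattern was most like that of a hedgehog gene were taken by Pearson's r of log2 CPM over the 15 libraries, among 10985 genes whose normalized counts averaged 100 or more. For Ihh they included Cyp4f16 (r = 0.98) and Acot11 (0.98). For Ptch1 they were Glg1, Myo10 and Ptprk (0.96 each), and for Smo they were Hps4, Sema4c and Srl (0.90 each). The same measure for Dhh gave Cryab, Parp8 and Ltf (0.98 each). Cryab was at 0.0250 ± 0.0433 CPM (SD, n = 3) in Halo-NLS and 65.1 ± 1.36 in SOX9-Halo spheroids. The 15 points share 5 conditions and 3 constructs, so that these values mainly describe differences between conditions.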

How the data were processed

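Poly-A RNA from 15 organoid libraries was sequenced. The authors trimmed reads with cutadapt 4.5, aligned them to mm39 (GRCm39) with STAR, kept uniquely mapped reads and deposited raw counts per gene from HTSeq 2.0.2, counted without strand in union mode. Reads in exons shared by several genes were therefore not assigned (9.65 to 13.6% ambiguous and 1.83 to 6.09% outside genes, both left out of library sizes). The deposited comparison tables hold the authors' own fold changes and p-values and were not used. Of 78298 gene identifiers, 78168 matched GENCODE release M39, which gave symbols, exon lengths, positions and transcript starts.

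All 15 libraries were fitted in 1 model with edgeR 4.0.16 (R 4.3.3, limma 3.58.1), with TMM scaling, filterByExpr (17560 genes kept) and 1 coefficient per condition. The quasi-likelihood test with Benjamini-Hochberg adjustment was called at an adjusted p of at most 0.01, a log2 fold change of at least 1 in size and normalized counts averaging 10 or more. The SE was derived from the log2 fold change and the F statistic. DESeq2 1.42.0, other scalings, filters and thresholds, a replicate block and leaving out each library were alternatives, and those for Dhh and the lists were added after seeing the data. The edgeR step was tested on simulated data. P-values measure the spread between these samples, which may be partly technical.

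The members and lists were chosen with earlier results of these data known. Named were the 8 hedgehog genes, Sox9, the genes of the pathway, target and cilium lists called in either spheroid condition against Halo-NLS, the 3 most abundant others of each list, and the 3 genes most like each tested hedgehog gene. Dhh was treated like a hedgehog gene because it is the remaining ligand. Same-numbered libraries deviated together (correlation over 0.1 for all 3 numbers, over 11039 genes) in 1 of 10 pairs of conditions, SOX9-Halo budding and spheroid (0.403, 0.234 and 0.345). The labels do not say what a number shares. Some genes that this rule names are not reported here.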

Additional observations from a re-analysis of the deposited data

Results flagged for a closer look

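For 6 of 62 tested genes (9.68%) of the hedgehog, pathway, target and cilium lists, the quasi-likelihood test of edgeR, Benjamini-Hochberg adjusted, called a difference between the SOX9-Halo and SOX9-mEGFP lines in the change from budding to spheroid (the SOX9-Halo change minus the SOX9-mEGFP change, log2), where 7.37% of all genes were called. Hhat, the palmitoylating enzyme of the ligands, differed by -3.66 (SE 0.49, adjusted p = 1.11e-04). Btrc, a ubiquitin ligase subunit that acts on GLI proteins, differed by 1.58 (SE 0.25, adjusted p = 5.59e-04). Ccnd2 differed by -1.13 (SE 0.26, adjusted p = 0.00859) and was higher in spheroids of both lines. Mycn differed by 4.80 (SE 0.97, adjusted p = 0.00334). Spp1 differed by -5.33 (SE 1.01, adjusted p = 0.00217), but it would not have passed the low-count filter without its spheroid libraries and so had to differ, so its test is a description and nothing is read from the share of 9.68%. Bbs1, part of the cilium's BBSome, differed by 2.14 (SE 0.45, adjusted p = 0.00480).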

How the results depend on the processing

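Of the numbers of hedgehog genes called, 187 stayed within 1.5 times over the alternatives and 29 moved. Each budding condition against Halo-NLS went from 0 to 1 under DESeq2, an adjusted p of at most 0.05, library sizes alone or no low-count filter. SOX9-Halo spheroids against Halo-NLS went from 1 to 2 under the last 3 of these, and ranged from 1 to 2 when 1 library was left out (2 without Halo-NLS replicate 1 or 2). With a log2 fold change of at least 2, the count went from 2 to 1 for SOX9-Halo spheroids against budding and for SOX9-mEGFP spheroids against Halo-NLS, and from 2 to 0 for SOX9-mEGFP spheroids against budding. That last comparison also gave 0 with only the compared libraries and 1 with library sizes alone, and ranged from 0 to 2 when 1 library was left out. The replicate block within the compared libraries gave 1 for SOX9-mEGFP spheroids against Halo-NLS (Ptch1, adjusted p = 0.0179), and the block over all 15 libraries changed no count. Between the budding conditions, where no hedgehog gene was called, signs turned. The Ihh log2 fold change of -0.08 became 0.0014 with library sizes alone and 0.053 with the replicate block within the compared libraries, and ranged from -0.64 to 0.40 over all alternatives. When 1 library was left out, that of Ptch1 ranged from -0.14 to 0.27 and that of Smo from -0.091 to 0.52. Causes were not tested. The Ihh level in SOX9-Halo spheroids was 6.83 CPM per kilobase with library sizes alone. That scaling raised the share of calls that were higher than in Halo-NLS from 47.2 to 58.2% in SOX9-Halo spheroids, 55.8 to 69.0% in SOX9-mEGFP spheroids, 66.5 to 90.7% in SOX9-Halo budding and 72.3 to 85.1% in SOX9-mEGFP budding. In SOX9-mEGFP spheroids, the other pathway genes called higher than in Halo-NLS went from 7 to 3 and the cilium genes from 11 to 4 with only the compared libraries. With the replicate block added to that fit they were 2 and 4, and the pathway genes called lower went from 2 to 1. A log2 fold change of at least 2 gave 3 pathway and 4 cilium genes higher there. In SOX9-Halo spheroids it took the pathway genes called higher from 5 to 2 and the cilium genes from 13 to 7. Depth limits Shh, Gli1, Gli2, Gli3 and Hhip, where most counts were at or under 3.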
